A study of Homo sapiens with 4 samples.

Results

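The lncRNAs described here are divergent transcripts, long noncoding RNAs that carry the suffix -DT after the symbol of the protein-coding gene from which they are transcribed away. They were chosen from the gene table by 3 criteria: the biotype lncRNA, a symbol ending in -DT, and a mean of 20 or more normalised counts over the 4 libraries. Of 30843 genes in the table, 506 were lncRNAs with such a name, and 174 of these reached the level. The 174 genes carry 173 symbols, because TNFRSF10A-DT stands for 2 gene identifiers. All 174 passed the filter on low values (at least 10 normalised counts in at least 2 libraries) and were tested. The criterion on level selected the members, so their levels are given below as a description, without a test.

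The libraries came from A549 cells, an established line of human lung adenocarcinoma, in 2D culture. In the RM+ group (n = 2), respiratory motion (RM) was simulated by cyclic changes of air pressure in a sealed chamber between a slightly negative and atmospheric pressure. The RM- group (n = 2) was kept without it. Both groups carried the wild-type genotype label, were cultured for 4 days and were sequenced as poly(A)-enriched, directional libraries. A single established line was used, and the cells were grown on plates without a lung scaffold. By their labels, replicates with the same number form a batch of 1 RM+ and 1 RM- library. Whether replicates were separate cultures is not stated in the labels or methods. The p-values therefore measure the spread between these libraries, which may be technical.

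Many promoters of mammalian protein-coding genes are transcribed in both directions, with a second polymerase starting close to the coding start site and moving away on the opposite strand. Most of the upstream RNA is short-lived: early polyadenylation sites and a scarcity of U1 snRNP binding sites end it, and the nuclear exosome degrades it. Where splicing and polyadenylation make a stable product, it is annotated as a lncRNA of its own. Poly(A) selection favours such stable products over the short-lived ones.

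The 4 promoters shown here belong to the pairs on which the comparisons turn. GOLPH3-DT was the single divergent transcript past the threshold, INSIG1 was the partner gene with the smallest adjusted p, and OSER1-DT and NQO1-DT passed the threshold once the batch was a term. The sequences are the 250 bases before the start site as RefSeq annotates it on GRCh38.p14, read 5′ to 3′ on the strand of the named gene. Capitals mark matches, on either strand, to TATAAA (a core promoter element read by TBP), CCAAT (read by NF-Y), GGGCGG (GC box), TGACGTCA (cyclic AMP response element), CACGTG (E-box), CCGGAAGT (read by ETS factors) or AAGATGGCG (read by YY1). The windows lie at chr5:32174320-32174569 on the minus strand (GOLPH3), chr7:155297628-155297877 on the plus strand (INSIG1), chr16:69726477-69726726 on the plus strand (NQO1-DT) and chr20:44210710-44210959 on the plus strand (OSER1-DT).
GOLPH3: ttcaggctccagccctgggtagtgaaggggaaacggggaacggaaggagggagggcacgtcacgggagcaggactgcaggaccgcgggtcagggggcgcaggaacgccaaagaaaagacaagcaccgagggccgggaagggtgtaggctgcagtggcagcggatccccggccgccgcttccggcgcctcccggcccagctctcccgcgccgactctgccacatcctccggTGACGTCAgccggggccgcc
INSIG1: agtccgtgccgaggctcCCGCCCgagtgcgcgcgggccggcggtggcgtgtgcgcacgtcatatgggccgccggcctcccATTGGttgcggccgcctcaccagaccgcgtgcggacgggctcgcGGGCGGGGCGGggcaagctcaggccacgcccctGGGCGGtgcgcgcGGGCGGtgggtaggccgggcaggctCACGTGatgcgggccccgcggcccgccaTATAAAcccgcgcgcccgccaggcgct
NQO1-DT: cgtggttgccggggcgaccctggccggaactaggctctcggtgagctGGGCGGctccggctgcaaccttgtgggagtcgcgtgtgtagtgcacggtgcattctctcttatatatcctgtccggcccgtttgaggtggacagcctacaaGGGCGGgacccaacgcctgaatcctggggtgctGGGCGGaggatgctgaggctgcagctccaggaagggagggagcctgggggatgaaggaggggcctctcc
OSER1-DT: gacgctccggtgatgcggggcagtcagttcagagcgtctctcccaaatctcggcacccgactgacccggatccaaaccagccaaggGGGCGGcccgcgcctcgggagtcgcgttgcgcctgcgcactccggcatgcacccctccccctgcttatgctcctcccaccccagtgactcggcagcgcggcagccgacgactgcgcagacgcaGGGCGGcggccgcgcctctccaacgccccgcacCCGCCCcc
The GC content of these windows was 70.4% for GOLPH3, 78.4% for INSIG1, 65.2% for NQO1-DT and 72.4% for OSER1-DT. The INSIG1 window held a TATA box, a CCAAT box, an E-box and GC boxes. By contrast, the GOLPH3 window held the cyclic AMP response element and none of the other motifs named here. It is the window of the partner gene, because GOLPH3-DT had none under its own name. By its coordinates the GOLPH3 window lies inside GOLPH3-DT, downstream of the start of that lncRNA. NQO1-DT and OSER1-DT held 3 GC boxes each. A match of letters is a description of the window and says nothing about a bound factor.

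Of the 174 lncRNAs, 136 had a promoter window in the RefSeq table, here of 300 bases (250 before to 50 after the start). Their median GC content was 69.0%, against 58.3% over all 27305 windows in the table. The ratio of observed to expected CpG was over 0.6 in 95.6% of them, in 93.8% of the 144 partner windows found, in 82.2% of tested protein-coding genes and in 48.9% of all windows, the CpG-rich composition typical of promoters without tissue restriction. The divergent transcripts' windows held a GC box in 72.8% of cases (99 of 136), against 70.1% of tested protein-coding genes and 44.6% of all windows. The ETS motif stood in 13.2% of the lncRNA windows and 12.5% of the partner windows, against 8.57% of tested protein-coding genes and 4.44% of all windows. A TATA box stood in 4.41% of the lncRNA windows (6 of 136), 6.94% of the partner windows and 5.57% of tested protein-coding genes, against 12.0% of all windows. Windows of a pair can share bases, so that the lncRNA and partner shares are not independent.

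In the table's coordinates (GRCh38), 173 of the 174 lncRNAs had the gene of their name in the table. The named partner of MLF1-DT was not analysed here. The lncRNA lay on the strand opposite to its partner in 172 of 173 pairs, and the exception was the shorter TNFRSF10A-DT gene (ENSG00000250714), which shares the strand of TNFRSF10A. In 158 pairs the start sites lay within 1000 bases of each other, head to head. The lncRNA started upstream of the partner, without overlap, in 104 pairs, at a median distance of 122.5 bases (quartiles 70.75 and 236.5). In 61 head-to-head pairs the distance was 50 to 149 bases. In the other 69 pairs the lncRNA started inside the partner gene and overlapped it on the opposite strand.

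**Figure D1:**
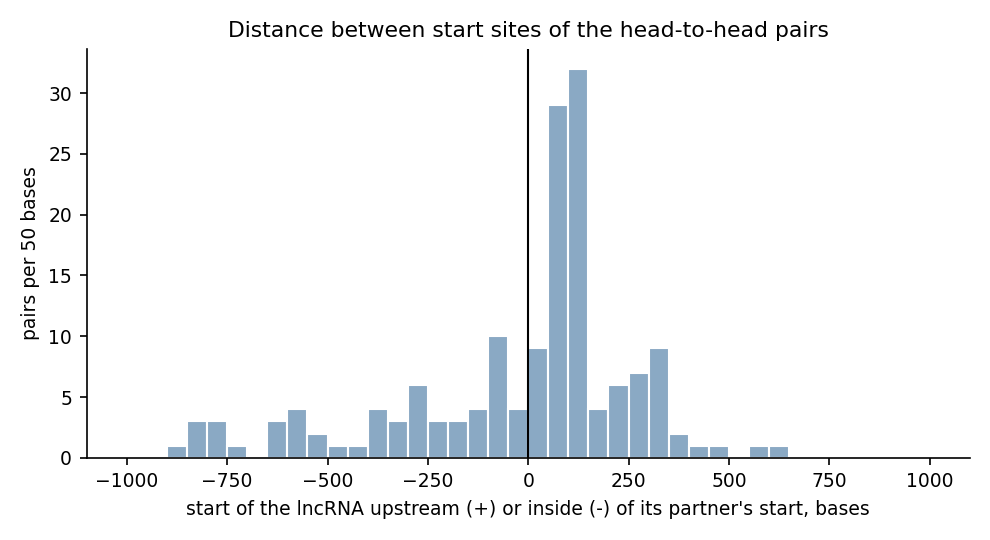
Distance in bases between the start sites of lncRNA and partner for the 158 head-to-head pairs (horizontal axis, positive where the lncRNA starts upstream of its partner) and number of pairs per 50 bases (vertical axis). The bars are highest 50 to 149 bases upstream, where 61 pairs lie, and a flat shoulder of pairs starts inside the partner.

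The 15 remaining pairs did not have start sites on opposite strands within 1000 bases. Some missed that limit narrowly: AHI1-DT started 1012 bases inside AHI1 and CTBP1-DT 1033 bases inside CTBP1. Others lay far from it. DHCR7-DT started 4306 bases inside DHCR7 and lay wholly within it, ITGB1-DT started 47355 bases inside ITGB1, and EPM2A-DT started 63386 bases upstream of EPM2A. The genomic span of the 174 lncRNAs had a median of 13645.5 bases and ran from 672 to 460252 bases. Beside the partner, 87 of the 174 overlapped some other gene of the table. Because the sources used here do not give the strand setting of the counting, reads in such overlaps could not be assigned with certainty to either gene.

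The 174 lncRNAs together took 0.141% and 0.144% of all normalised counts in the RM+ libraries, against 0.143% and 0.138% in the RM- libraries. Their summed level was 26931 and 27679 normalised counts in RM+, and 27704 and 26927 in RM-. The summed levels of the groups overlapped. A single lncRNA had a median level of 75.8 normalised counts and the range was 20.6 to 2427. At the lower edge, KLHL7-DT was just inside the criterion with a mean of 20.6 and ZNRD2-DT just outside it with 19.9. A low level in bulk RNA can come from fewer cells that transcribe a gene or from less RNA per cell, and these cannot be told apart.

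The most abundant divergent transcript was MVP-DT, beside the gene of the major vault protein. MVP-DT had 2461 and 2420 normalised counts in RM+ and 2428 and 2397 in RM-, and the groups overlapped. H2AZ1-DT, beside the gene of the histone variant H2A.Z, had 2266 and 2391 in RM+ and 2168 and 2262 in RM-. For H2AZ1-DT both RM+ libraries lay above both RM- libraries, but neither difference exceeded its standard error: the log2 fold change of RM+ over RM- was 0.02 for MVP-DT (SE 0.0821) and 0.07 for H2AZ1-DT (SE 0.0839). H2AZ1-DT spans DDIT4L on the opposite strand, a stress-induced inhibitor of mTOR signalling that was higher in RM+ (log2 fold change 0.69, adjusted p = 0.0311, limma).

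The next in order were USP34-DT with a mean of 1223 normalised counts, TMED2-DT with 899, WDR5B-DT with 697, KPNB1-DT with 658, SLC12A2-DT with 639, NQO1-DT with 607, C2orf74-DT with 598 and BTG1-DT with 477. Their partners serve unrelated tasks, among them deubiquitination (USP34), cargo transport in the early secretory pathway (TMED2), nuclear import (KPNB1), sodium, potassium and chloride cotransport (SLC12A2) and restraint of proliferation (BTG1). WDR5B-DT, KPNB1-DT, SLC12A2-DT and C2orf74-DT followed each other within the spread of their replicates: SLC12A2-DT alone ran from 553 to 694 over the 4 libraries. None of these 10 passed the threshold in either direction with the condition alone. The 95% intervals of their log2 fold changes spanned -0.50 to 0.33. Several of the 10 overlap an expressed gene on the opposite strand. MVP-DT overlaps MAZ (mean 2729 normalised counts), USP34-DT overlaps XPO1 (9680) and KPNB1-DT overlaps NPEPPS (2746). The part of those genes' reads in the lncRNA levels was not tested.

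Between genes, levels were compared per kb of exon, with exon lengths from GENCODE v29. On that scale the median lncRNA stood at 27.0% of its partner (quartiles 10.2% and 73.4%, 171 pairs). Where the table's gene spans matched those of v29 within 10% for both genes, the median was 23.4% (122 pairs). The lncRNA stood under 10% of its partner in 42 pairs and above it in 34. TMED2-DT and NQO1-DT were the lowest of the 10 most abundant relative to the partner, at 6.25% and 6.59%. NQO1-DT had 1026 normalised counts per kb, and NQO1, a quinone reductase that the oxidative stress factor NRF2 induces, had 15578. C2orf74-DT showed the opposite order, with 192 normalised counts per kb against 2.98 for C2orf74. C2orf74 itself was too low to be tested, with 7.11 and 4.04 normalised counts in RM+ and 4.03 and 2.87 in RM-. WDR5B-DT (241 per kb) likewise stood above WDR5B (47.7 per kb), a paralogue of the chromatin protein WDR5. WDR5B-DT overlaps KPNA1 (mean 1612 normalised counts) over 21279 bases on the opposite strand. The part of KPNA1 reads in the WDR5B-DT value was not tested.

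**Figure D2:**
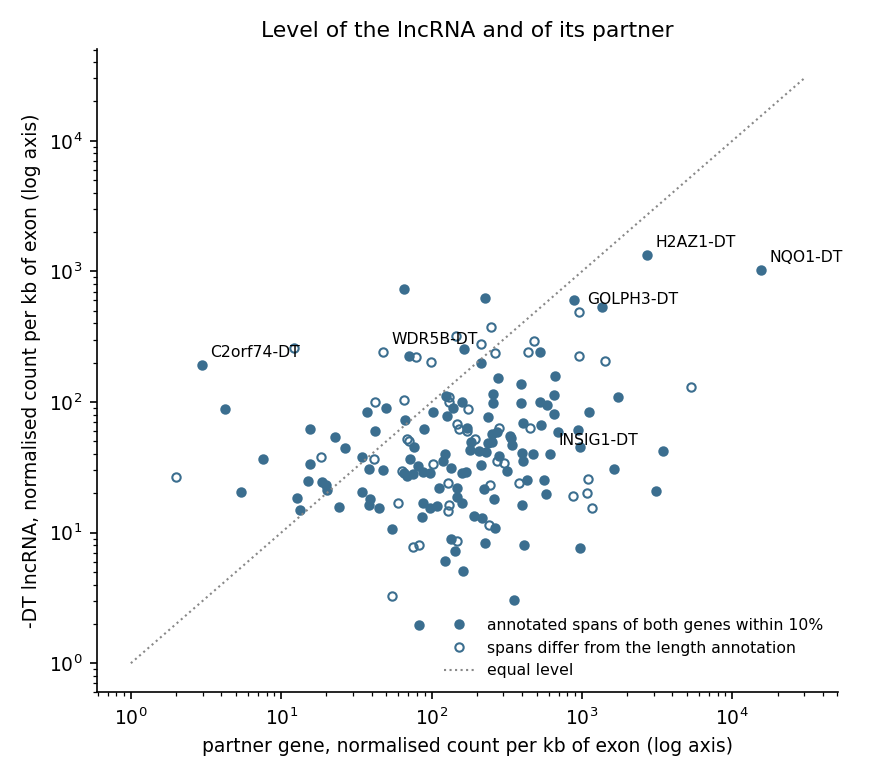
Mean normalised count per kb of exon over the 4 libraries of the partner gene (horizontal, log axis) and of its -DT lncRNA (vertical, log axis), 1 point per pair. Filled points are pairs whose table spans matched the length annotation within 10%. Of 171 pairs, 34 lie above the dotted line of equal level, C2orf74-DT farthest from it.

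The question put to the 2 groups was which divergent transcripts differed with respiratory motion. GOLPH3-DT alone passed the adjusted threshold in limma with the condition alone, higher in RM+ by 1.43-fold, and 173 of the 174 did not pass. Among all genes tested, 398 of 17632 passed (2.26%), 1.46% higher and 0.794% lower, whereas the share among the divergent transcripts was 0.575%. The share over all lncRNAs was 0.933%. No divergent transcript fell past an adjusted p of 0.05 by limma. At an unadjusted p under 0.05, 7 were higher and 15 lower, 12.6% of the members, against 14.5% of all genes (7.68% higher, 6.8% lower). edgeR's quasi-likelihood test and DESeq2 on the recovered reads called 0 in either direction, against 1.99% and 2.02% of all genes, with 19 (edgeR) and 3 (DESeq2) at an unadjusted p under 0.05.

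A rule of an unadjusted p under 0.05 with a log2 fold change beyond 1 selected 0 of the 174, against 1.15% of all genes. The median log2 fold change was -0.03, against -0.003 over all genes tested. The quartiles were -0.21 and 0.21, and the changes ran from -0.85 to 0.79. Of the 174, 79 lay above 0 and 95 below. Both RM+ libraries lay above both RM- libraries for 41 lncRNAs (23.6%, against 22.2% of all genes), and below them for 42 (24.1%, against 22.2%). These shares were near those of all genes.

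The precision followed the level. The median standard error of the log2 fold change was 0.33 for the 57 lncRNAs with a mean of 20 to 50 normalised counts, 0.24 for the 51 between 50 and 100, and 0.16 for the 66 at 100 or more. The counting error alone would give 0.26, 0.18 and 0.11. Of the members, 108 of 174 moved the same way in both batches, against 11053 of 17632 genes tested. A log2 change of 0.52, the size seen for GOLPH3-DT below, was thus hardly detectable for a single lncRNA of the lowest class.

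**Figure D3:**
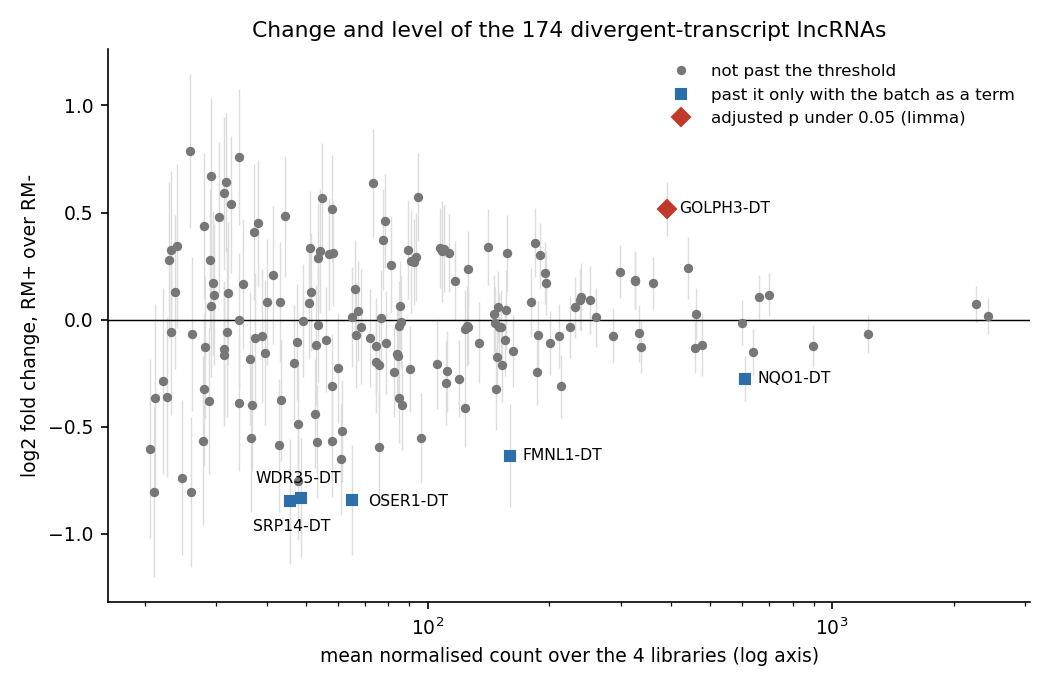
Log2 fold change of RM+ over RM- (vertical; grey bars are ±1 standard error) against the mean normalised count over the 4 libraries (horizontal, log axis) for the 174 lncRNAs. GOLPH3-DT (0.52) is the single point past the adjusted threshold with the condition alone, and the 5 squares, all below 0, pass it when the batch is a term.

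GOLPH3-DT (ENSG00000272086) lies at chr5:32173960-32175273 on the plus strand. It starts 359 bases inside GOLPH3 (chr5:32124716-32174319, minus strand), the gene of a Golgi phosphoprotein that keeps glycosyltransferases in the Golgi, and the 2 genes share 360 bases on opposite strands. GOLPH3-DT had 492 and 428 normalised counts in RM+, against 349 and 294 in RM-. Both RM+ libraries stood above both RM- libraries, and batch 1 was above batch 2 in either group. The means were 460 ± 45.0 in RM+ and 322 ± 38.6 in RM- (SD, n = 2 each), a log2 fold change of 0.52 (SE 0.127, adjusted p = 0.042, limma with Benjamini-Hochberg adjustment over all genes tested). The change was 0.49 in batch 1 and 0.54 in batch 2. With the batch as a term, the adjusted p was 0.000138.

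The call rested on the choice of test. The adjusted p was 0.0558 in edgeR, 0.0794 in DESeq2 and 0.0598 in limma-voom, and over all alternatives it ran from 0.000138 to 0.484. Without RM+ replicate 1 the log2 fold change was 0.42 (adjusted p = 0.171) and without RM- replicate 2 it was 0.39 (adjusted p = 0.193). The partner GOLPH3 did not pass: it had 2739 and 2702 normalised counts in RM+ and 2602 and 2614 in RM-, a log2 fold change of 0.06 (95% interval -0.11 to 0.23, adjusted p = 0.806, limma). The difference between the changes of the lncRNA and its partner was not tested.

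With the batch as a term, limma called 5 lncRNAs lower in RM+ and 1 higher, 3.45% of the members, against 9.74% of all genes tested (5.1% higher, 4.63% lower). The 5 were OSER1-DT, WDR35-DT, SRP14-DT, FMNL1-DT and NQO1-DT. OSER1-DT, beside a gene named for its response to oxidative stress, showed the largest change among members with a mean of 50 or more. It had 45.7 and 45.4 normalised counts in RM+ and 66.6 and 102 in RM-. The RM+ libraries were alike and low, and the RM- libraries differed from each other by more than the gap between the groups. The log2 fold change was -0.84 (SE 0.257), with an adjusted p of 0.113 in limma with the condition alone and 0.0112 with the batch. Over the alternatives its adjusted p ran from 0.00851 to 0.579, and without RM- replicate 2 the log2 fold change was -0.54. The partner OSER1 had 522 and 572 in RM+ and 556 and 518 in RM-, a log2 fold change of 0.03.

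FMNL1-DT, beside the gene of a formin that assembles actin filaments, had 154 and 94.9 normalised counts in RM+ and 248 and 143 in RM-. The groups overlapped, yet in each batch the RM+ library was the lower one. Batch 2 stood below batch 1 by 0.74 on the log2 scale over both groups. The log2 fold change of RM+ over RM- was -0.64 (SE 0.242), with an adjusted p of 0.220 in limma with the condition alone and 0.00266 with the batch. Without RM- replicate 1 the log2 fold change was -0.24 and without RM+ replicate 2 it was -0.29, and it was -0.98 without RM+ replicate 1 and -1.03 without RM- replicate 2. For FMNL1 itself the value was -0.20 (adjusted p = 0.369).

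NQO1-DT had 528 and 569 normalised counts in RM+ and 706 and 625 in RM-. Both RM+ libraries lay below both RM- libraries, and the log2 fold change was -0.28 (SE 0.107; adjusted p 0.225 with the condition alone and 0.0385 with the batch, limma). NQO1 was nearly equal between the groups, with 47738 and 52010 in RM+ and 48890 and 54126 in RM- (log2 fold change -0.05). NQO1-DT shares 693 bases on the opposite strand with NOB1, an endonuclease of ribosome maturation, which was itself lower in RM+ (log2 fold change -0.34, adjusted p = 0.0489, limma). The part of NOB1 reads in the NQO1-DT value was not tested.

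WDR35-DT and SRP14-DT were of lower level and were named because the batch term called them. WDR35-DT, beside the gene of an intraflagellar transport protein, had 40.6 and 29.3 normalised counts in RM+ and 59.5 and 65.0 in RM-. SRP14-DT, beside the gene of a signal recognition particle subunit, had 37.6 and 27.3 in RM+ and 50.4 and 67.9 in RM-. Neither pair of groups overlapped. The log2 fold changes were -0.83 and -0.85, with an adjusted p of 0.0361 and 0.0385 in limma with the batch and of 0.157 and 0.171 without it. The partners WDR35 (-0.10) and SRP14 (-0.02) did not pass in either fit. WDR35-DT overlaps MATN3 (mean 233 normalised counts) over 12744 bases on the opposite strand. MATN3 also stood lower in RM+ (-0.54 on the log2 scale), but missed the threshold in limma with the condition alone (adjusted p = 0.0671). The part of MATN3 reads in the WDR35-DT value was not tested.

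Of the 10 lncRNAs with the largest change at a mean of 50 or more, 7 lay below 0 in RM+ and 3 above. Apart from OSER1-DT and FMNL1-DT, none passed an adjusted p of 0.05 with or without the batch. PDCD6IP-DT, beside the gene of the ESCRT adaptor ALIX, had 83.3 and 93.9 normalised counts in RM+ and 44.4 and 71.7 in RM- (log2 fold change 0.64). ATP6AP1-DT, beside the gene of an accessory subunit of the lysosomal proton pump, had 109 and 118 in RM+ and 84.7 and 67.9 in RM- (0.57). In both cases the RM+ libraries lay above the RM- libraries, and the adjusted p was 0.237 for PDCD6IP-DT and 0.190 for ATP6AP1-DT in limma. Without RM- replicate 1 the log2 fold change of PDCD6IP-DT was 0.30. ATP6AP1 had 3389 and 3591 in RM+ and 3036 and 2967 in RM- (log2 fold change 0.22; adjusted p 0.220, and 0.0170 with the batch).

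The TNFRSF10A locus holds 2 divergent-transcript genes that overlap each other on opposite strands over 5683 bases, beside the gene of a death receptor for TRAIL. The shorter one (ENSG00000250714) had 56.9 and 74.7 normalised counts in RM+ and 43.4 and 44.0 in RM- (log2 fold change 0.57, adjusted p = 0.318, limma), and without RM+ replicate 2 the log2 fold change was 0.37. The longer one (ENSG00000246582) had 195 and 223 in RM+ and 168 and 170 in RM- (0.30, adjusted p = 0.387). TNFRSF10A had 762 and 795 in RM+ and 629 and 619 in RM- (0.32; adjusted p 0.113, and 0.00766 with the batch). At all 3 genes the RM+ libraries stood above the RM- libraries, but reads of the overlapping pair could not be assigned with certainty to one of them.

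Of the lncRNAs below 0, TSNAX-DT had 56.9 and 38.4 normalised counts in RM+ and 79.7 and 68.8 in RM- (log2 fold change -0.65). EMSY-DT had 45.7 and 76.7 in RM+ and 84.7 and 95.6 in RM- (-0.59), and DPH5-DT had 39.6 and 45.4 in RM+ and 72.6 and 55.4 in RM- (-0.57). Their partners serve RNA binding with translin (TSNAX), transcriptional repression and BRCA2 binding (EMSY) and the diphthamide modification of an elongation factor (DPH5). PCMTD1-DT had 37.6 and 56.5 in RM+ and 71.6 and 66.0 in RM- (-0.57), and BOLA3-DT, beside a gene of mitochondrial iron-sulphur cluster assembly, had 69.1 and 86.8 in RM+ and 126 and 103 in RM- (-0.55). The groups did not overlap for any of these 5, and their adjusted p in limma ran from 0.218 to 0.335. They were chosen for a large change in the same libraries, which favours such a separation. Of all genes tested, 22.2% had both RM+ libraries below both RM- libraries. Without RM+ replicate 1 the log2 fold change was -0.23 for EMSY-DT and -0.28 for PCMTD1-DT, and without RM+ replicate 2 it was -0.37 for TSNAX-DT. Without RM- replicate 1 it was -0.38 for DPH5-DT.

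**Figure D4:**
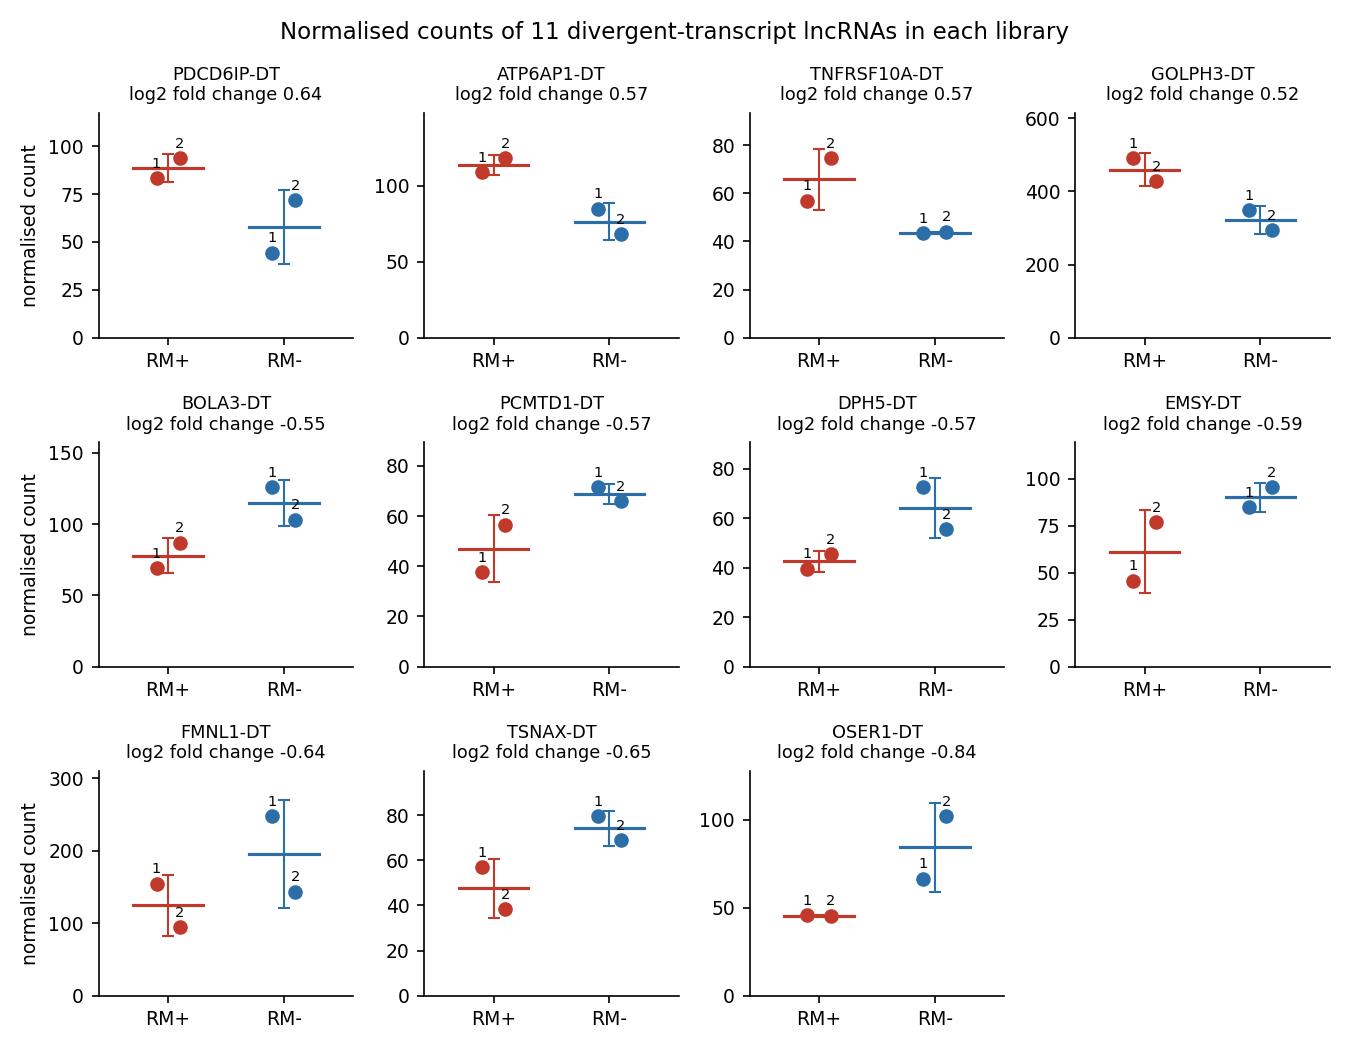
Normalised counts (vertical, from 0) in the RM+ and RM- libraries for GOLPH3-DT and the 10 lncRNAs with the largest change at a mean of 50 or more; points are libraries with their replicate number, long bars the mean and whiskers the SD (n = 2). The TNFRSF10A-DT panel is ENSG00000250714, and FMNL1-DT is the single panel in which the groups overlap. The panels were chosen by their change in these libraries, which favours groups that do not overlap.

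Each lncRNA was then set beside its partner. Of 170 partner genes tested, 2 were higher in RM+ and 0 lower at an adjusted p of 0.05 in limma, 1.18%, against 2.72% of all protein-coding genes tested (1.77% higher, 0.943% lower). At an unadjusted p under 0.05, 17 partners were higher and 9 lower, against 8.87% and 7.8% of protein-coding genes. edgeR called 2 partners and DESeq2 3, against 2.41% and 2.53% of protein-coding genes. With the batch as a term, 14 partners were higher and 7 lower, 12.4%, against 11.7% of protein-coding genes (6.15% higher, 5.57% lower). Among the partners of the lncRNAs described above, this fit called MVP (log2 fold change 0.25), ATP6AP1 (0.22) and TNFRSF10A (0.32) higher and BTG1 (-0.22) and DPH5 (-0.30) lower in RM+.

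Both partners called higher in limma with the condition alone act in sterol metabolism. INSIG1, which holds the SREBP escort protein in the endoplasmic reticulum when sterols are abundant, had 2589 and 2700 normalised counts in RM+ and 1816 and 1803 in RM-. The log2 fold change was 0.55 (SE 0.083, 1.46-fold, adjusted p = 0.00216, limma). INSIG1-DT, which starts 235 bases upstream, had 62.0 and 68.7 in RM+ and 70.6 and 59.3 in RM-, and its groups overlapped. Its log2 fold change was 0.01 (95% interval -0.48 to 0.51). DHCR7, the enzyme of the last step from 7-dehydrocholesterol to cholesterol, had 5338 and 5254 in RM+ and 4145 and 3662 in RM- (log2 fold change 0.44, SE 0.087, adjusted p = 0.0117). Without RM- replicate 2 its adjusted p was 0.0716. DHCR7-DT, inside the same gene, had 58.9 and 66.6 in RM+ and 42.4 and 60.2 in RM- (0.31, 95% interval -0.24 to 0.85), and its groups overlapped. Whether lncRNA and partner differed in their change was not tested at either locus.

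Across the 171 pairs with both genes tested, 108 (63.2%) had the same sign of log2 fold change, 53 with both above 0 and 55 with both below. Pearson's r of the pairs' changes was 0.31 and Spearman's rho 0.34. These are descriptions across pairs that share the same 4 libraries, and pairs are not replicates. In the 103 pairs without overlap r was 0.25, and in the 68 with overlap, where reads can be shared, it was 0.43. For pairs with a lncRNA mean of 100 or more r was 0.23 (65 pairs), and below that level 0.34 (106 pairs). The same pairs compared as batch 2 over batch 1 gave r = -0.02, with the same sign in 85 of 171; by level, r was 0.21 for the 65 pairs with a lncRNA mean of 100 or more and -0.13 for the 106 below. In the 157 lncRNA pairs that lay head to head within 1000 bases, r was 0.28 for RM+ over RM-. For batch 2 over batch 1 it was -0.02 there. Protein-coding genes gave 647 head-to-head pairs with starts within 1000 bases. Their r was 0.13 for RM+ over RM- and 0.20 for batch 2 over batch 1. The sign was the same in 338 of the 647 (52.2%) for RM+ over RM- and in 398 (61.5%) for batch 2 over batch 1. None of these coding genes started inside the other, whereas some of the lncRNAs started inside their partner.

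**Figure D5:**
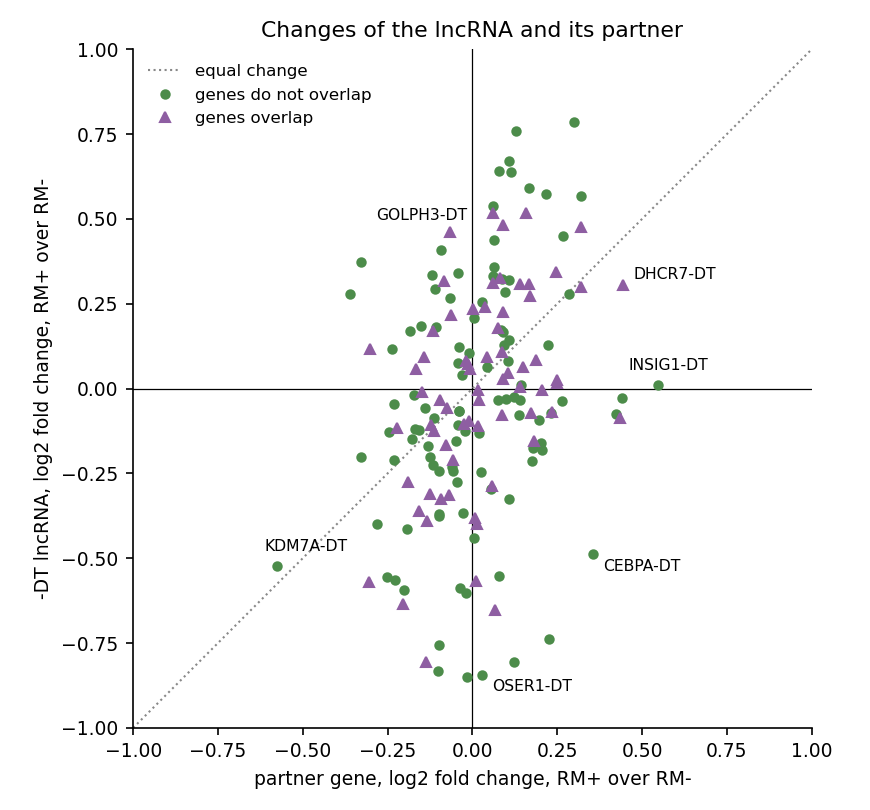
Log2 fold change of RM+ over RM- of the partner gene (horizontal) and of its -DT lncRNA (vertical) for 171 pairs; circles are pairs without overlap, triangles overlapping pairs, and the dotted line marks equal change. The lncRNAs spread more widely than their partners, and 108 points lie in the quadrants of equal sign.

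Some loci were singled out after their values were seen. At KDM7A, a histone demethylase gene, the lncRNA had 50.8 and 49.5 normalised counts in RM+ and 68.6 and 76.5 in RM-, and KDM7A had 133 and 95.9 in RM+ and 169 and 168 in RM-. The log2 fold changes were -0.52 and -0.58, close to equal, and neither passed in limma with the condition alone (adjusted p = 0.320 and 0.141); KDM7A passed with the batch (adjusted p = 0.0125). At CEBPA, a transcription factor of lung epithelial differentiation, the signs were opposite. CEBPA-DT had 35.6 and 43.4 in RM+ and 64.6 and 47.8 in RM- (-0.49, adjusted p = 0.455), and CEBPA had 427 and 443 in RM+ and 346 and 334 in RM- (0.36, adjusted p = 0.143, and 0.0195 with the batch).

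Grouped by the annotated role of the partner, 12 pairs had a transcription factor and 18 a mitochondrial protein as partner. The lncRNAs beside transcription factors were split evenly, 6 above 0 and 6 below, with a median log2 fold change of -0.01. Those beside mitochondrial proteins were 10 above and 8 below, with a median of 0.07. The other 141 had a median of -0.03, and the single call, GOLPH3-DT, was among them.

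The machinery that limits divergent transcripts was read from 8 gene lists, which cover the RNA exosome, its NEXT and PAXT adaptors, the cap-binding complex with ARS2, the Integrator complex, the Restrictor and early termination factors, cleavage and polyadenylation, the U1 snRNP proteins, and pausing and elongation. Of 84 genes, 83 were tested, 1 was higher in RM+, 0 were lower and 82 did not pass, against the 2.26% called over all genes, and the median log2 fold change was -0.06, with 28 of them above 0. The gene called higher was PPP1R10, which encodes PNUTS. This protein phosphatase subunit slows polymerase at transcript ends and shares its partner WDR82 with the Restrictor complex. PPP1R10 had 1630 and 1624 normalised counts in RM+ and 1187 and 1245 in RM- (log2 fold change 0.42, SE 0.0866, adjusted p = 0.0153, limma). With the batch as a term, 6 of the 83 were higher and 5 lower, where 5.1% and 4.63% of all genes were. The Restrictor and early termination list had a median of 0.15 over 7 genes. Of these, 5 lay above 0 and 3 were higher with the batch. The NEXT and PAXT list had a median of -0.13 over 8 genes, 1 of which was lower with the batch. The U1 snRNP list had a median of -0.18 over 6 genes, 2 of which were lower with the batch: SNRPA (-0.31) and SNRNP70 (-0.19). The 13 exosome genes ran from -0.26 to 0.28, and EXOSC6, at 0.28, was higher with the batch (adjusted p = 0.0121, limma).

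The depth was 18754356 and 19009997 reads in RM+ and 19228867 and 20412283 in RM-. Mitochondrial mRNAs took 3.44% and 1.89% of normalised counts in RM+ and 4.13% and 2.80% in RM-, lower in batch 2 of either group and lower in the RM+ library of either batch. The part of this in the results was not tested. Epithelial markers were present, with summed levels of 97257 and 96284 normalised counts in RM+ and 98700 and 89707 in RM- over 5 genes. The summed alveolar type 2, fibroblast, endothelial and immune markers did not exceed 23.4 normalised counts in any library, and the surfactant genes SFTPC and SFTPB were at or below 2.87. The endothelial sum was 23.4 and 10.1 in RM+ and 3.03 and 9.56 in RM-.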

How the data were processed

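For 4 libraries the authors deposited 1 table with 30843 genes. Tools listed by the submitters are Trimmomatic 0.38 for trimming, FastQC 0.11.7, HISAT2 2.1.0 on GRCh38, then featureCounts 1.6.3 and DESeq2 1.24.0. Strand setting and annotation release of the counting: not given in the sources used here. The deposited signal of each sample is its count divided by a DESeq2 size factor. The deposited log2 fold change, the score columns (mean over samples, standard error and test statistic) and the p-value columns are the authors' own comparison, left aside here. Division of each column by its value of 1 read restored the reads (100% of values whole within 1e-06), 18754356 to 20412283 reads per sample; precision at low levels is limited by this depth. Symbols that had become numbers (47) were replaced through the gene identifiers, 30820 of which had a reference name.

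Genes with at least 10 normalised counts in at least 2 samples (17632) were tested two-sided with limma-trend (limma 3.58.1, R 4.3.3) on log2(normalised count + 1), which understates changes of low genes, with Benjamini-Hochberg adjustment over all of them. Alternatives were edgeR 4.0.16 and DESeq2 1.42.0 on recovered reads, limma-voom, TMM scaling, other pseudocounts and filters, leaving out each replicate, and the batch as a term. The labels give the batch, so same-numbered libraries are pairs; their deviations from the group means correlated at 0.168 across 17632 genes. The edgeR fit with the batch was added after seeing the data. The code was tested on simulated data.

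Named genes were the lncRNAs past the threshold, the 10 most abundant, the 10 with the largest change at a mean of 50 or more, those with a called partner, those at the level criterion, all their partners, and called genes of the lists. The members, gene lists and motifs were chosen with earlier results of these data known.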

Additional observations from a re-analysis of the deposited data

How the results depend on the processing

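The count of 1 divergent transcript higher in RM+ became 0 in edgeR, DESeq2 and limma-voom, without the filter and with TMM scaling. The count of 0 lower became 5 with the replicate block, in limma and in edgeR alike. Partners higher in RM+ numbered 14 with the replicate block in limma, 12 in edgeR with the block and 0 without the filter, against 2 as reported. Partners lower numbered 7 with the block in both tools, against 0. The limma fit with the block leaves 1 residual degree of freedom and takes every gene's spread from genes of like level. The cause of these differences was not tested. Leaving out 1 library at a time gave 0 to 2 divergent transcripts higher, 0 to 1 lower, 1 to 4 past the unadjusted rule with a log2 fold change beyond 1, 1 to 3 partners higher and 0 to 3 lower, a median log2 fold change of -0.04 to 0.01, and 96 to 113 pairs of equal sign. Each removal leaves 1 library in a group and uneven batches, so a batch difference is not separated from the change. Without RM- replicate 1 the log2 fold change was 0.49 for GARS1-DT and -1.15 for OSER1-DT. FMNL1-DT had a log2 difference of -0.74 for batch 2 over batch 1. Its log2 fold change was -0.98 without RM+ replicate 1 and -1.03 without RM- replicate 2. Over the single removals it ran from -1.03 to -0.24. The removals also moved EMSY-DT (-0.96 to -0.23), PCMTD1-DT (-0.85 to -0.28) and PDCD6IP-DT (0.30 to 0.98) by over 1.5 times.

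Of 672 values of 48 named genes over the alternatives, 624 kept their direction and side of the threshold, 19 newly passed it, 11 no longer did and 18 changed sign. All 18 came from leaving out a library. The log2 fold changes then ran from -0.39 to 0.16 for BTG1-DT, -0.094 to 0.064 for C2orf74-DT, -0.11 to 0.14 for INSIG1-DT, -0.12 to 0.027 for NQO1, -0.17 to 0.067 for SLC12A2, -0.048 to 0.030 for KPNB1, -0.18 to 0.097 for USP34, -0.079 to 0.050 for H2AZ1, -0.039 to 0.093 for OSER1, -0.066 to 0.20 for TSNAX and -0.11 to 0.070 for KLHL7. Beyond those named, the block changed no call among the named lncRNAs.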

Other observations

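Below the level criterion, 69 further lncRNAs with a -DT name were tested. None passed an adjusted p of 0.05 in limma, edgeR or DESeq2, with 4 at an unadjusted p under 0.05 in limma, and their median log2 fold change was 0.03. The median standard error was 0.49 there, against 0.23 for the 174 members. In addition, 2 genes with a -DT name carried another biotype and were not counted.

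Other named lncRNA classes were counted at the same level criterion. Of 657 antisense lncRNAs with -AS names, 5 were higher and 3 lower in RM+ in limma (1.22%), with a median log2 fold change of -0.01; edgeR called 7 of these and DESeq2 8, against 0 of the 174 divergent transcripts in either tool. Of 158 lncRNAs with LINC names, 1 was higher and 0 lower (0.633%), with a median of -0.05; at an unadjusted p under 0.05, 10 of these were higher and 6 lower, and edgeR and DESeq2 each called 1. The difference of these shares from the 0.575% of the divergent transcripts was not tested.

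Among the loci at which a lncRNA stood above its partner per kb of exon, IL10RB-DT had 88.1 normalised counts per kb against 4.23 for IL10RB. CTDSPL2-DT had 734 against 65.0 for CTDSPL2. On the opposite strand, IL10RB-DT overlaps IFNAR2 (mean 237 normalised counts) and a separate gene entry, IFNAR2-IL10RB (8.04). CTDSPL2-DT overlaps GOLM2 (2506) over 13074 bases. The part of overlapping genes in these levels was not tested. These were chosen after their values were seen.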
